A study of Mus musculus with 12 samples.

Results

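Differentiated mouse embryonic stem cells of a female line labelled RlimKO were compared with those of the wild-type female line Pgk12.1, 2 libraries against 2, out of 12 libraries in the series. The members were chosen by their labels: every library marked as differentiated and female. The other 8 libraries came from the same 2 lines before differentiation (4 libraries) and from a male wild-type line (4 libraries). Per the labels, all cells were of strain C57BL/6. WT and RlimKO-labelled cells alike went through embryoid bodies for 3 days in bacterial dishes without LIF, the cytokine that holds stem cells undifferentiated, and then through 6 days of further culture at 7.5% oxygen. Undifferentiated cells were grown with LIF. Each genotype was a single line, so the Rlim label and any other difference between the lines cannot be told apart. Nothing in the labels tells whether replicates were grown apart; the p-values therefore reflect the scatter of these particular libraries, and that scatter could be technical.

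Rlim encodes an X-linked ubiquitin ligase that marks transcription cofactors and the pluripotency factor REX1 for breakdown, and it is best known for its part in starting Xist expression when female cells inactivate an X chromosome. In embryoid bodies, stem cells leave the pluripotent state and form a mixture of extraembryonic endoderm, mesoderm and its muscle and mesenchymal derivatives, ectoderm and blood precursors. A bulk library sums all of these cells, so fewer cells of a type and less RNA per cell cannot be told apart.

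Levels are CPM (counts scaled to a common library total) after scaling for library composition, given in the order replicate 1, replicate 2. Rn45s, a ribosomal RNA precursor, and Lars2 were left out; they held 43.1% and 47.6% of the counts in the WT libraries but 75.6% and 37.0% in RlimKO-labelled replicates 1 and 2. The remaining depth was 2666390 and 1967780 counts in the WT libraries and 1027807 and 2247258 in the RlimKO-labelled ones. Rlim itself (chrX:103957163-103981296, mm10) stood at 488 and 501 CPM in the WT libraries and 546 and 559 CPM in the RlimKO-labelled ones, with no overlap and a higher mean in the labelled line, and the difference was not called (log2 fold change 0.16 ± 0.09, adjusted p = 0.263). The deleted part of the gene is not stated, and a count over the whole gene cannot show which exons were transcribed. Xist, the RNA that coats the inactive X chromosome, stood at 2064 and 2036 against 2179.8 and 2031 CPM, with overlapping libraries (log2 fold change 0.04 ± 0.10, adjusted p = 0.839). Its antisense partner Tsix held 5 and 6 counts against 3 and 8 and was below the filter on low counts. Reads of Xist and Tsix cannot be told apart where the genes overlap. The Y-linked genes Ddx3y, Eif2s3y and Uty had 0 counts in all 4 libraries.

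Pluripotency markers were far below their undifferentiated levels in both lines. Pou5f1, the core pluripotency factor OCT4, ran from 681 to 837 CPM in the 4 undifferentiated female libraries and from 17.0 to 46.8 CPM in the differentiated ones. Sox1, a defining marker of neural progenitors, had 0 counts in all 4 differentiated libraries, and Pax6 had at most 1 count in any. Nkx2-5, a defining cardiac factor, had at most 2 counts in any library, while the sarcomere genes described below were well detected.

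The 2 lines differed widely after differentiation. Of 11552 genes tested, 2107 (18.2%) differed at an adjusted p below 0.05; 975 (8.44%) were higher and 1132 (9.8%) lower in the RlimKO-labelled line. A gene that passed this threshold is said to have risen or fallen, always in the RlimKO-labelled line relative to WT. Fold changes are log2 values ± the standard error. The test was edgeR's quasi-likelihood F test with Benjamini-Hochberg adjustment over all genes tested. A gene could pass the filter on low counts through the libraries of a single line, which favours a call in that line's direction. Counts of rises and falls in the gene lists include such genes. The libraries of the lines did not overlap in 6551 genes (56.7%), so lack of overlap alone says little about a gene. Most genes named below were taken for the smallest p in their list, so where lack of overlap is mentioned it adds no support to their calls. The number of calls differed between fits. DESeq2 called 828 of these genes, and a model of all 12 libraries, which takes in the dissimilar differentiated male pair, called 363 genes, 360 of them among these. Without RlimKO-labelled replicate 2 the count was 1349.

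The 12 largest rises were in genes of low level in WT cells. Pyy, a gut peptide hormone, had 2 counts in the WT libraries and 55 in the RlimKO-labelled ones (ratio 40.4, 95% interval 10.7 to 342, RlimKO-labelled over WT). Upk1b, a membrane protein of urothelium and mesothelium, stood at 14.9 and 13.95 CPM in the WT libraries and 104 and 104 CPM in the RlimKO-labelled ones (log2 fold change 2.84 ± 0.19, adjusted p = 8.26e-10). Igsf11, an adhesion molecule of the immunoglobulin family, stood at 13.4 and 9.97 against 72.99 and 76.2 CPM (2.65 ± 0.21, adjusted p = 1.76e-08). Tdo2, the tryptophan-degrading dioxygenase of liver, stood at 5.97 and 7.47 against 49.99 and 38.8 CPM (2.69 ± 0.28, adjusted p = 8.67e-07). Lack of overlap between the libraries of the lines was a condition for entry among the largest rises, so it adds no support. The other 8 were the calmodulin-binding peptide Pcp4 (3.65), the axonal adhesion molecule L1cam (3.33), the sulfotransferase Sult5a1 (3.19), Pld5 of the phospholipase D family (3.16), the metalloprotease Adam33 (3.16), the potassium channels Kcnd3 (3.15) and Kcna1 (1.49 and 1.49 against 14.998 and 12.3 CPM), and the nuclear receptor Nr1h5 (2.73).

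The 12 largest falls included genes with no counts left. F13a1, the A chain of coagulation factor XIII and a macrophage product, had 53 and 44 counts in the WT libraries and 0 in both RlimKO-labelled ones, at least 22.02-fold lower when 3 counts are allowed over the group. Sp4, a zinc-finger transcription factor, had 29 and 30 counts against 0 and 0 (at least 13.4-fold lower by the same floor). Zim1, an imprinted zinc-finger gene, stood at 148 and 147.5 CPM in the WT libraries and 10.999 and 5.02 CPM in the RlimKO-labelled ones (log2 fold change -4.40 ± 0.23, adjusted p = 4.59e-11). Cyp1b1, a cytochrome P450 that acts on estrogens and retinoids, stood at 136 and 133 against 7.999 and 5.93 CPM (-4.34 ± 0.22, adjusted p = 4.59e-11). Igfbp7, a secreted binder of insulin-like growth factors, stood at 86.2 and 89.2 against 4.9995 and 1.82 CPM (-4.92 ± 0.30, adjusted p = 2.86e-10). For the falls too, lack of overlap was a condition for entry. A further 7 genes kept 1 to 3 counts over both RlimKO-labelled libraries: the retinoic acid hydroxylase Cyp26a1 (ratio 51.1, 95% interval 8.89 to 2044), Shisa3 (ratio 30.6, 95% interval 8.24 to 257), the secreted epithelial protein Clca1 (ratio 27.5, 95% interval 9.18 to 135), the pepsinogen Pga5 (ratio 16.7, 95% interval 4.38 to 142), the lens crystallin Cryaa (ratio 16.3, 95% interval 4.29 to 139), the ring-finger gene Rnf150 (ratio 16.3, 95% interval 4.29 to 139) and Dbc1 (ratio 26.9, 95% interval 7.21 to 226). Ratios are WT over RlimKO-labelled, and the intervals cover counting error only. All 24 of these genes were called whichever of the 4 libraries was dropped.

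**Figure D1:**
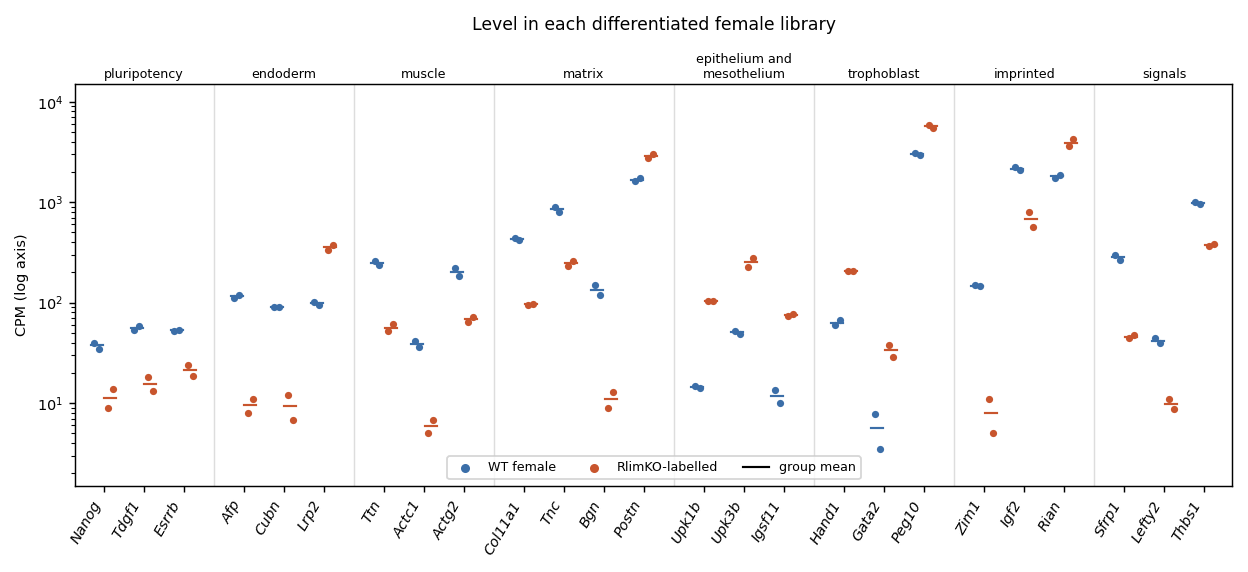
CPM (log axis) of 25 genes in the 4 differentiated female libraries: points are libraries, short lines are group means, blue is WT and orange RlimKO-labelled. In every gene drawn the points of the lines do not overlap; Upk1b is near 14 CPM in WT and 104 in the RlimKO-labelled line, and Bgn runs the other way.

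A stretch of chromosome 10 was raised as a block. Genes were put in order along each chromosome and taken in 446 windows of 25 tested genes, the last window of a chromosome holding the remainder as well. From the start of the 11th window of chromosome 10 (chr10:78069368-128958286, mm10) to the last gene tested, 140 of 312 genes rose and 14 fell (49.4% called), and the median log2 fold change was 0.51, a fold of 1.42. In the 250 tested genes before that point 24 rose and 29 fell (21.2% called), with a median of -0.03. The start of the stretch was set from these same differentiated window medians, so the contrast between its genes and those before it was partly fixed by that choice. The window medians stepped from -0.04 in the 10th window to 0.54 in the 12th and lay between 0.42 and 0.67 in all later ones. Among the 154 genes of the stretch with a mean of at least 50 CPM, the median ratio of an RlimKO-labelled to a WT library was 0.55 to 0.59 (log2) for each of the 4 pairs of libraries. The stretch was raised before differentiation as well, with a median of 0.56. It held 4.14% to 4.36% of the counts of tested genes in the 4 RlimKO-labelled libraries, 2.88% to 2.94% in the 4 WT female libraries and 2.93% to 3.27% in the 4 male libraries. DNA copy number was not analysed here.

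Members of the gene lists that lie in the stretch include Cdk4, Cdk2, Atp5b, Atp5d, Rps15, Mbd3, Dcn, Lum and Hsp90b1, which rose, Mdm2, which was not called, and Cnn2, which fell. Outside the stretch, 835 of 11240 genes rose and 1118 fell (17.4% called). Of 137 genes called with the same sign before and after differentiation, 54 lay in the stretch. Among the 446 windows, 20 had a median over 0.3 in size and 11 of them were on chromosome 10. Before differentiation 29 windows did, and 12 did in both states with the same sign. Chromosomes 5 and 12 had overall medians of 0.13 and 0.22 before differentiation, and 0.04 and 0.06 after it. From the 16th window of chromosome 5 to the last, undifferentiated medians lay between 0.18 and 0.39, except 0.03 in the 27th. Differentiated medians there lay between -0.05 and 0.24. From the 7th to the 14th window of chromosome 12, undifferentiated medians lay between 0.11 and 0.44 and differentiated ones between -0.14 and 0.27. The part of such regions in differences between the states was not tested. After differentiation the 2 windows with the largest medians, both above 1.1, were neighbours on chromosome 12. They hold the imprinted cluster described with the imprinted genes.

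**Figure D2:**
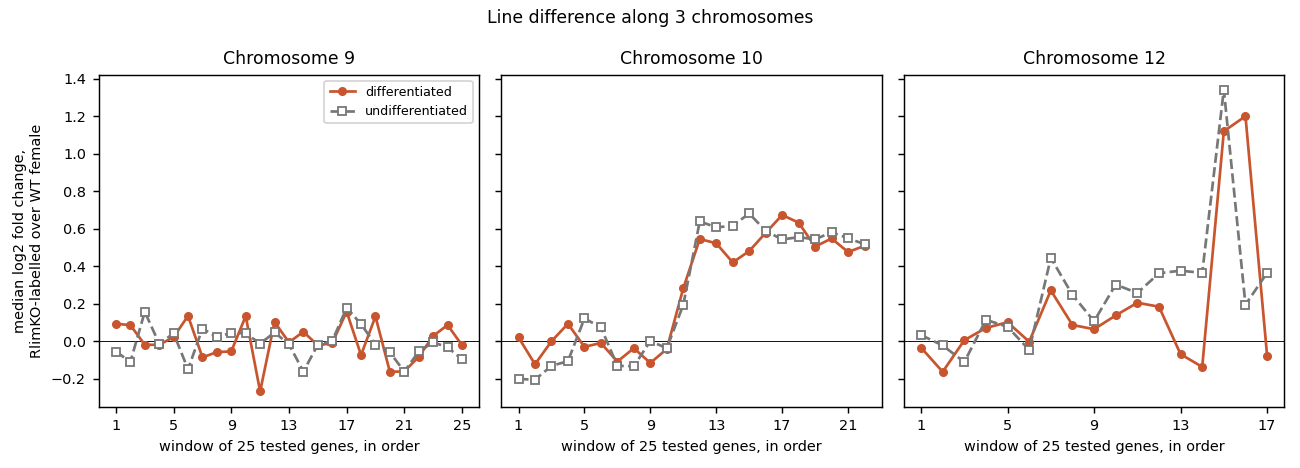
Median log2 fold change (RlimKO-labelled over WT female) in consecutive windows of 25 tested genes along chromosomes 9, 10 and 12; orange circles are differentiated cells, open grey squares undifferentiated cells. Chromosome 9 stays near 0, chromosome 10 steps up after the 10th window to medians of 0.42 to 0.67, and chromosome 12 has 2 windows above 1.1 in differentiated cells.

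Most of the remaining pluripotency transcripts were lower in the RlimKO-labelled line. Of 13 naive pluripotency genes tested, 11 fell and 0 rose, with a median of -1.25 beside 0.00 over all genes tested. Of 13 core and general pluripotency genes 8 fell and 2 rose (median -1.05). Nanog, a homeobox factor of the naive state, stood at 39.9 and 34.9 CPM in the WT libraries and 8.999 and 13.7 CPM in the RlimKO-labelled ones (log2 fold change -1.63 ± 0.26, adjusted p = 0.000142). Esrrb, an orphan nuclear receptor of the same network, stood at 51.9 and 53.8 against 23.998 and 18.7 CPM (-1.36 ± 0.21, adjusted p = 9.72e-05). Tdgf1, the Nodal co-receptor CRIPTO, stood at 53.4 and 57.8 against 17.998 and 13.2 CPM (-1.90 ± 0.23, adjusted p = 4.09e-06). In these genes both WT libraries lay above both RlimKO-labelled ones. Pou5f1 stood at 42.9 and 46.8 against 16.998 and 20.5 CPM (-1.21 ± 0.22, adjusted p = 0.000508). Fgf4, the growth factor that stem cells secrete, stood at 21.3 and 19.4 against 1.9998 and 5.93 CPM (-2.12 ± 0.39, adjusted p = 0.000547). Its RlimKO-labelled libraries alone would not have passed the filter on low counts, so the filter favoured its fall.

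Zfp42, which encodes the RLIM substrate REX1, fell by a smaller amount, 33.95 and 32.4 against 21.998 and 19.2 CPM (-0.72 ± 0.23, adjusted p = 0.035), and was called in only 1 of 4 leave-one-out fits, in which a library is dropped. The 2 core genes that rose were Lin28a (82.5 and 82.7 against 146 and 126 CPM; 0.70 ± 0.13, adjusted p = 0.000681) and Trim71 (79.1 and 78.2 against 148 and 123 CPM; 0.76 ± 0.14, adjusted p = 0.000433), RNA-binding proteins of the let-7 microRNA pathway. Of 8 formative and primed genes 4 fell and 0 rose (median -0.80). The de novo methyltransferase Dnmt3b and the signal Nodal were among them and were lost in 2 and 4 of those fits. The count of naive genes that fell was 5 without RlimKO-labelled replicate 2, 7 without WT replicate 1, 4 by DESeq2 and 5 in the model of all 12 libraries. Core and formative genes lower came to 5 and 2 without RlimKO-labelled replicate 2, the formative count was also 2 without WT replicate 2 and by DESeq2, and the model of all 12 libraries called 5 and 0.

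Endoderm genes divided. Afp, alpha-fetoprotein of the visceral endoderm, stood at 111 and 119.6 CPM in the WT libraries and 7.999 and 10.9 CPM in the RlimKO-labelled ones (log2 fold change -3.52 ± 0.21, adjusted p = 2.63e-10). Cubn, the endocytic receptor cubilin, stood at 91.04 and 89.7 against 11.999 and 6.84 CPM (-3.40 ± 0.24, adjusted p = 2.44e-09), and Apob, the apolipoprotein of secreted lipid particles, at 551 and 595.5 against 212 and 208 CPM (-1.45 ± 0.10, adjusted p = 2.62e-09). Each was lower in both RlimKO-labelled libraries than in either WT library. Lrp2, the endocytic receptor megalin that partners cubilin, went the other way, 102 and 95.7 against 337 and 371 CPM (1.84 ± 0.11, adjusted p = 2.63e-10), and so did the endocytic adaptor Dab2, 252 and 247 against 414 and 349 CPM (0.60 ± 0.11, adjusted p = 0.000384). In all, 2 of 17 tested visceral endoderm and yolk sac genes rose and 7 fell (median -0.50).

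Of 11 endoderm transcription factors tested, 4 fell and 0 rose (median -1.03): Gata4 (116 and 112 against 60.99 and 50.2 CPM; -1.08 ± 0.15, adjusted p = 2.9e-05), Sox7 (-1.93), Hnf4a (-1.26) and Eomes (-2.68). Only Gata4 was also called by DESeq2. Parietal endoderm genes, which include chains of its thick basement membrane, fell in 9 of 13 cases and rose in 0 (median -0.80). The secreted protease Plat, tissue plasminogen activator, stood at 109 and 116 against 44.995 and 55.7 CPM (-1.12 ± 0.15, adjusted p = 2.15e-05). Srgn, the proteoglycan serglycin, had 28 and 19 counts in the WT libraries and 0 in the RlimKO-labelled ones (at least 10.7-fold lower), but it is also a macrophage gene. Those called lower in the model of all 12 libraries were 3 visceral endoderm genes, 1 endoderm factor and 5 parietal endoderm genes.

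Most detected muscle genes were lower. Of 14 tested smooth muscle and contractile genes 11 fell, and of 15 cardiac and sarcomere genes 9 fell, with 0 rising in either list (medians -0.84 and -0.81). Myl7 of the cardiac list, described below, passed the filter on low counts through its WT libraries alone, so the filter favoured its fall. Ttn, the giant sarcomere protein titin, stood at 261 and 238 CPM in the WT libraries and 51.99 and 60.7 CPM in the RlimKO-labelled ones (log2 fold change -2.12 ± 0.13, adjusted p = 3.28e-10). Actc1, cardiac actin, stood at 41.04 and 35.9 against 4.9995 and 6.84 CPM (-2.62 ± 0.30, adjusted p = 2.15e-06). Ankrd1, a stress-responsive repressor of striated muscle, stood at 154 and 167 against 52.99 and 50.2 CPM (-1.64 ± 0.14, adjusted p = 4.02e-08). The gap between the lines was over 2-fold in each of these and no libraries overlapped. Tnnt2, cardiac troponin T, stood at 35.4 and 24.9 against 4.9995 and 6.39 CPM (-2.36 ± 0.34, adjusted p = 3.6e-05). In the smooth muscle list Actg2, enteric actin, stood at 219 and 183 against 63.99 and 72.1 CPM (-1.54 ± 0.14, adjusted p = 6.79e-08), Myl9, a myosin light chain, at 185 and 152 against 64.99 and 57.5 CPM (-1.49 ± 0.14, adjusted p = 2.73e-07), and the intermediate filament Des at 157 and 152.5 against 64.99 and 62.95 CPM (-1.28 ± 0.13, adjusted p = 6.98e-07). Tagln fell less, 672 and 666 against 364 and 406 CPM (-0.79 ± 0.10, adjusted p = 6.91e-06). Cnn2 was the smooth muscle gene of the raised stretch of chromosome 10 and also fell (-0.43 ± 0.11, adjusted p = 0.00832). Neither DESeq2 nor the model of all 12 libraries called it. With any one library dropped the counts were 8 to 11 smooth muscle genes and 8 to 9 cardiac genes, but the model of all 12 libraries called 1 and 6. DESeq2 called 7 and 8.

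The 250 bases before the RefSeq starts of the lowered muscle genes (build GRCm38.p6, the same assembly as mm10) were read for the CArG box. Serum response factor binds this motif in many muscle promoters. Muscle genes that did not fall were not read, so whether the motif goes with the fall was not tested. The motif was sought on both strands. It was present in 4 of the 17 lowered muscle genes that have an entry in the promoter table (20 fell). Among all 32851 promoters of that length the share was 1.47%. The first count is by gene, some with several promoters, and the second by promoter. A match is a description of the letters, not a site. The promoters of Actc1 (chr2:114052876-114053125, minus strand), Myl9 (chr2:156775214-156775463, plus strand) and Myl7, an atrial myosin light chain (10.8 and 9.47 against 0.9999 and 1.37 CPM; chr11:5898783-5899032, minus strand), are shown to place the motif, in capitals, relative to the start, which follows the last base. They were chosen after the values were seen.
Actc1: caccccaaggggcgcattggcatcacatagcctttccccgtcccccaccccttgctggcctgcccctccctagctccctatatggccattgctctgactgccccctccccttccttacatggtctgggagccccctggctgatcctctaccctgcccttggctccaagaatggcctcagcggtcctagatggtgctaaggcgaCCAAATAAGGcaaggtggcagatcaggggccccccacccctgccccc
Myl9: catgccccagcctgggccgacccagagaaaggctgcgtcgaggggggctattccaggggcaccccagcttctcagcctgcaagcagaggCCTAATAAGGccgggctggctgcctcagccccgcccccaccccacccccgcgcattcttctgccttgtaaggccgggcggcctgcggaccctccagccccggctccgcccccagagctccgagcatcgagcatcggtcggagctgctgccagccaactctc
Myl7: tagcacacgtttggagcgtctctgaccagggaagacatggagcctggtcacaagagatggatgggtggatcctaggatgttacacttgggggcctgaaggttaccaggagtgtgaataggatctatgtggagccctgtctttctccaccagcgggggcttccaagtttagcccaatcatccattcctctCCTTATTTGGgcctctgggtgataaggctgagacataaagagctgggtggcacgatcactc
The motif began 47, 161 and 61 bases before the start in Actc1, Myl9 and Myl7, and 56 bases before it in Cnn2. It was in 0 of the 4 promoters read from the collagen and laminin list (Col11a1, Col4a1, Col4a2 and Col6a1). With matches in 1.47% of all promoters, 4 promoters are too few to serve as a contrast.

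Early mesoderm factors moved both ways: of 16 tested, 3 rose and 5 fell (median -0.35). Hand1, a factor of extraembryonic and lateral mesoderm and of trophoblast giant cells, stood at 59.3 and 66.8 CPM in the WT libraries and 208 and 208 CPM in the RlimKO-labelled ones (log2 fold change 1.73 ± 0.13, adjusted p = 4.44e-09). Tbx20, a T-box factor of heart mesoderm, stood at 342 and 351 against 539 and 567.5 CPM (0.68 ± 0.10, adjusted p = 3.33e-05), and Snai2, which drives epithelial-mesenchymal transition, at 47.01 and 32.9 against 94.99 and 88.96 CPM (1.17 ± 0.18, adjusted p = 6.75e-05). Against these rises stood Prrx1, a homeobox factor of limb and craniofacial mesenchyme, at 42.2 and 45.3 against 6.999 and 5.93 CPM (-2.78 ± 0.29, adjusted p = 5.73e-07). The libraries did not overlap in any of the 4. The number that fell was 1 without RlimKO-labelled replicate 2, 3 without WT replicate 1, 2 by DESeq2 and 0 in the model of all 12 libraries, which called 1 higher.

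Matrix genes also split, by chain. Of 26 tested collagen and laminin chains 7 rose and 14 fell (median -0.49). Col11a1, a fibrillar collagen of cartilage, stood at 438 and 416 CPM in the WT libraries and 94.99 and 97.6 CPM in the RlimKO-labelled ones (log2 fold change -2.15 ± 0.11, adjusted p = 4.59e-11). The basement membrane chains Col4a1 (2807 and 2780.1 against 1359.9 and 1160.1 CPM; -1.15 ± 0.10, adjusted p = 7.9e-08) and Col4a2 (1470.03 and 1425 against 637 and 572 CPM; -1.27 ± 0.10, adjusted p = 1.14e-08) fell. Their X-linked relatives Col4a5 (325 and 314 against 506 and 478 CPM; 0.62 ± 0.10, adjusted p = 0.000113) and Col4a6 (118 and 128 against 275 and 276 CPM; 1.17 ± 0.11, adjusted p = 1.63e-07) rose, so type IV collagen chains went in both directions. The laminin chain Lama1 fell (-0.90 ± 0.10, adjusted p = 1.17e-06), and Lama4 (0.54 ± 0.11, adjusted p = 0.00179) and Lamb2 (0.56 ± 0.12, adjusted p = 0.00198) rose. Fibrillar Col1a1 (0.51), Col1a2 (0.57) and Col3a1 (0.52) rose by smaller amounts. Col6a1, a beaded-filament collagen on the part of chromosome 10 that was not raised, stood at 325 and 296.5 against 131 and 124 CPM (-1.30 ± 0.11, adjusted p = 4.79e-08). DESeq2 called 6 chains higher and 11 lower. The model of all 12 libraries called 0 higher and 7 lower, so none of the rises was called there.

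Mesenchymal genes were likewise divided, 7 of 19 higher and 6 lower (median -0.09). Tnc, tenascin C of remodelling matrix, stood at 904 and 798 CPM in the WT libraries and 234 and 257 CPM in the RlimKO-labelled ones (log2 fold change -1.78 ± 0.11, adjusted p = 2.63e-10), and Lox, the collagen cross-linking oxidase, at 166 and 155 against 49.99 and 46.1 CPM (-1.76 ± 0.14, adjusted p = 1.76e-08). Postn, periostin, stood at 1617 and 1723 against 2777 and 3023 CPM (0.80 ± 0.10, adjusted p = 6.24e-06), and Fn1, fibronectin, stood at 4339.6 and 3119.98 against 6420.4 and 5889.9 CPM (0.72 ± 0.13, adjusted p = 0.000332). Lum, the proteoglycan lumican, rose (0.92 ± 0.11, adjusted p = 2.88e-06) but lies in the raised stretch of chromosome 10. Bgn, the X-linked proteoglycan biglycan, stood at 148 and 119 against 8.999 and 12.8 CPM (-3.54 ± 0.21, adjusted p = 2.63e-10). Of 16 TGF beta targets and matrix response genes 2 rose and 8 fell (median -0.59). Thbs1, the matricellular thrombospondin, stood at 1007 and 961 against 367 and 382 CPM (-1.39 ± 0.10, adjusted p = 2.44e-09). The elastic-fibre protein Fbln5 ran against the list at 7.09 and 6.48 against 33.997 and 39.7 CPM (2.45 ± 0.28, adjusted p = 2.54e-06). Mesenchymal genes called in the model of all 12 libraries were 0 higher and 1 lower, and those of the TGF beta list 0 and 5.

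In other lists of this kind, 1 of 9 cartilage and bone genes rose, Sox6 (66.04 and 78.2 against 232 and 218 CPM; 1.64 ± 0.13, adjusted p = 8.57e-09), and 4 fell, among them Spp1, osteopontin (23.9 and 31.4 against 1.9998 and 3.65 CPM; -3.10 ± 0.39, adjusted p = 8.79e-06). Of 18 regulators and markers of the epithelial-mesenchymal transition 2 rose and 5 fell. Cadherins and protocadherins fell in 7 of 20 cases and rose in 0, led by Fat4 (-1.02 ± 0.11, adjusted p = 8.85e-07). The cadherin count was 2 without WT replicate 1, 3 without RlimKO-labelled replicate 2 and 2 by DESeq2, and the number of transition genes that fell was 2 in each of these. Cartilage and bone genes lower came to 2 without WT replicate 2 and by DESeq2. The model of all 12 libraries called 0 cadherins, 0 transition genes in either direction and 1 cartilage or bone gene lower.

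Neural progenitor genes that were detected fell or were not called: 4 of 8 fell and 0 rose (median -0.53). Among the 4, Sox2 is also counted in the core pluripotency list and Dlk1 in the list of paternally expressed imprinted genes. Nes, the intermediate filament nestin, stood at 210.1 and 230.2 CPM in the WT libraries and 73.99 and 75.7 CPM in the RlimKO-labelled ones (log2 fold change -1.55 ± 0.12, adjusted p = 1.76e-08), and Sox11 at 215 and 212 against 138 and 121 CPM (-0.74 ± 0.12, adjusted p = 9.94e-05). A further 15 genes of that list were below the filter, 6 of them with 0 counts in all 4 libraries. Genes of neurons and axon growth rose in 4 of 13 cases and fell in 4. Nrp1, a semaphorin and VEGF co-receptor, stood at 1409.6 and 1419 against 2312 and 2374 CPM (0.73 ± 0.09, adjusted p = 1.21e-05), and Rtn1, a reticulon of neuroendocrine cells, at 10.1 and 6.48 against 37.996 and 31.5 CPM (1.99 ± 0.29, adjusted p = 4.71e-05). The adhesion molecule Ncam1 (-0.92 ± 0.11, adjusted p = 6.98e-06) and the axonal protein Dpysl3 (-1.82 ± 0.24, adjusted p = 1.63e-05) fell. Slc1a3, a glial glutamate transporter, was the 1 of 5 neural crest and glial genes that rose (118 and 128 against 256 and 250.4 CPM, 1.04 ± 0.11, adjusted p = 8.79e-07). It ran against its list, in which 2 genes, Ngfr and Ednrb, fell (median -0.49). DESeq2 called 0 of that list lower. Of the genes of neurons and axon growth, 1 was called higher and 0 lower in the model of all 12 libraries.

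Endothelial and blood genes changed in both directions. Tek, the angiopoietin receptor TIE2, rose (58.95 and 75.2 against 202 and 171 CPM; 1.47 ± 0.14, adjusted p = 2.57e-07) while Eng, the TGF beta co-receptor endoglin (49.6 and 48.3 against 12.999 and 15.5 CPM; -1.74 ± 0.23, adjusted p = 1.37e-05), and Flt1, a VEGF receptor (123.5 and 109 against 72.99 and 55.7 CPM; -0.91 ± 0.15, adjusted p = 0.00024), fell; in all 1 of 13 endothelial genes rose and 3 fell. Among 11 blood genes 3 rose and 5 fell (median -0.67). Laptm5, which fell, passed the filter on low counts through its WT libraries alone. Hbb-bh1, an embryonic beta globin, stood at 42.2 and 39.9 against 109 and 133 CPM (1.58 ± 0.16, adjusted p = 3.35e-07). Runx1, the factor that definitive blood needs, stood at 69.02 and 64.3 against 21.998 and 16.9 CPM (-1.84 ± 0.21, adjusted p = 1.78e-06), and Itga2b, the platelet integrin CD41, at 34.7 and 30.9 against 2.9997 and 5.93 CPM (-2.71 ± 0.33, adjusted p = 5.8e-06). The globin was thus higher, and Runx1 and Itga2b lower, in both RlimKO-labelled libraries. Blood genes lower came to 3 without WT replicate 1. The model of all 12 libraries called 1 blood gene higher and 3 lower, and 0 and 1 of the endothelial genes.

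A list of 23 macrophage genes was drawn up after the values were seen, and 8 of them passed the filter on low counts. Members such as F13a1, Srgn and Cx3cr1 passed through their WT counts alone, so no count of falls is given for the list. Cx3cr1, the fractalkine receptor, had 24 and 18 counts in WT libraries and 0 in both RlimKO-labelled ones (at least 9.54-fold lower). Laptm5 kept 1 count in the RlimKO-labelled libraries (ratio 33.4, 95% interval 5.72 to 1345). The summed level of the 23 genes was 132 and 119 CPM in the WT libraries and 28.0 and 20.1 CPM in the RlimKO-labelled ones. The same sum was 76.3 to 124 CPM in undifferentiated female cells. Genes whose falls had already been seen, such as F13a1, are in this sum, so its difference between the lines adds no support. The defining complement gene C1qa had 0 counts in all 4 differentiated libraries. C1qb, Fcer1g and Tyrobp had 3 to 7 counts in each WT library and 0 in both RlimKO-labelled ones. Whether macrophages were present, and whether they had a part in the other differences, was not tested.

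Most detected trophoblast and extraembryonic genes were higher. Of 14 tested, 9 rose and 1 fell, with a median of 1.15 beside 0.00 over all genes. Gata2, a zinc-finger factor of trophoblast and blood progenitors, stood at 7.84 and 3.49 CPM in the WT libraries and 37.996 and 28.7 CPM in the RlimKO-labelled ones (log2 fold change 2.43 ± 0.34, adjusted p = 2.59e-05). Peg10, a retrotransposon-derived gene that the placenta needs, stood at 3084 and 2955 against 5897 and 5457 CPM (0.91 ± 0.10, adjusted p = 1.53e-06). Tfap2c, a factor of trophoblast and germ cells, stood at 9.33 and 6.48 against 14.998 and 19.6 CPM (1.15 ± 0.34, adjusted p = 0.0229), and was called in 2 of 4 leave-one-out fits. Hand1, given above, belongs here too, and libraries overlapped in none of these. The Rhox homeobox genes of the X chromosome divided, with Rhox5 at 38.1 and 36.9 against 5.999 and 9.58 CPM (-2.15 ± 0.28, adjusted p = 1.34e-05) and Rhox6 at 8.21 and 11.5 against 28.997 and 37.9 CPM (1.84 ± 0.28, adjusted p = 7.99e-05); Rhox copies resemble each other and their counts are uncertain. Eomes, another trophoblast marker, is not in this list and fell, as given with the endoderm factors. DESeq2 did not call it. Elf5, a defining trophoblast factor, had 2 counts in the WT libraries and 1 in the others, and the placental lactogen gene Prl3d1 had 0 in all 4. The number that rose was 5 without RlimKO-labelled replicate 2, by DESeq2 and in the model of all 12 libraries.

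Simple epithelial keratins and uroplakins rose in 4 of 6 tested cases and fell in 0. Krt20 of this list, below the filter on low counts, ran the other way. It had 10 and 14 counts in the WT libraries and 0 in both RlimKO-labelled ones. Krt8 (220.5 and 230.2 against 347 and 353 CPM; 0.64 ± 0.10, adjusted p = 0.00011) and Krt19 (0.65 ± 0.12, adjusted p = 0.000588), keratins of single-layered epithelia, rose moderately. Upk3b, a uroplakin also made by mesothelium, stood at 52.6 and 48.8 against 227 and 277 CPM (2.33 ± 0.13, adjusted p = 1.99e-10), beside the rise of Upk1b given above. The 4 calls were also made whichever library was dropped, and the model of all 12 libraries called 2. Of 11 Hox genes tested 2 rose and 1 fell; 0 were called by DESeq2 and 0 without RlimKO-labelled replicate 2 or without WT replicate 1.

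In the WNT list of ligands, receptors and targets 4 of 27 genes rose and 7 fell (median -0.08). Sfrp1, a secreted WNT antagonist, stood at 298.5 and 266 CPM in the WT libraries and 43.996 and 47.9 CPM in the RlimKO-labelled ones (log2 fold change -2.60 ± 0.13, adjusted p = 4.59e-11), and its relative Sfrp2 at 27.2 and 24.9 against 4.9995 and 7.30 CPM (-1.99 ± 0.32, adjusted p = 0.000152). Frizzled receptors differed by member: Fzd1 fell (109.7 and 103 against 28.997 and 31.9 CPM; -1.78 ± 0.17, adjusted p = 1.68e-07) and Fzd8 rose (10.4 and 11.5 against 34.996 and 26.003 CPM; 1.42 ± 0.28, adjusted p = 0.00105). DESeq2 called 2 of the list higher and 3 lower, and the model of all 12 libraries 0 and 3.

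Nodal signalling genes fell while some BMP genes rose, 7 of 21 higher and 6 lower in the joint list. Lefty2, a feedback inhibitor of Nodal, stood at 44.4 and 39.4 against 10.999 and 8.67 CPM (-2.15 ± 0.27, adjusted p = 6.34e-06), next to the fall of its co-receptor Tdgf1 given above. Msx2, a BMP target, stood at 17.5 and 14.5 against 40.996 and 38.3 CPM (1.28 ± 0.23, adjusted p = 0.000501). Bmp4 itself stood at 99.2 and 70.3 against 142 and 137 CPM (0.70 ± 0.15, adjusted p = 0.00196). The number that rose was 4 without RlimKO-labelled replicate 2, 3 without WT replicate 1, 2 by DESeq2 and 0 in the model of all 12 libraries. In the FGF and ERK list 3 of 19 rose and 7 fell (median -0.42); Fgf10 rose (30.6 and 24.9 against 68.99 and 58.8 CPM; 1.16 ± 0.19, adjusted p = 0.000167), as did the receptor Fgfr3 (0.93 ± 0.15, adjusted p = 0.000124), and the phosphatase Dusp4 fell (-0.88 ± 0.16, adjusted p = 0.000384). FGF and ERK genes lower came to 4 without RlimKO-labelled replicate 2, 3 by DESeq2 and 2 in the model of all 12 libraries, which called 0 higher.

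In the retinoic acid list 6 of 11 genes fell and 0 rose (median -1.06). Aldh1a2, the enzyme that makes retinoic acid, stood at 17.2 and 22.9 against 2.9997 and 3.65 CPM (-2.50 ± 0.41, adjusted p = 0.000167). Crabp2, a carrier of the acid, was lower in both libraries (11.9 and 12.5 against 1.9998 and 2.28 CPM; -2.44 ± 0.49, adjusted p = 0.00118), and the degrading enzyme Cyp26a1 was among the largest falls. Aldh1a2, Crabp2 and Cyp26a1 passed the filter on low counts through their WT libraries alone, so the filter favoured their falls. Only 2 of the list were called lower in the model of all 12 libraries. Of 12 Notch genes 2 rose and 4 fell, and of 9 Hedgehog genes 2 rose and 1 fell; the Hedgehog-binding protein Hhip stood at 34.7 and 32.4 against 15.998 and 10.5 CPM (-1.44 ± 0.27, adjusted p = 0.000613). These 2 lists were unstable. Notch genes lower came to 1 without RlimKO-labelled replicate 2 or without WT replicate 1, and 0 Notch genes were called higher without WT replicate 2. DESeq2 called 0 Notch genes, and 0 Hedgehog genes were called higher by DESeq2, without RlimKO-labelled replicate 1 or without WT replicate 2.

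Most glycolytic enzymes fell, by modest amounts. Of 17 tested, 13 fell and 0 rose (median -0.48). Hk2, the inducible hexokinase, stood at 293 and 293.5 CPM in the WT libraries and 164 and 163 CPM in the RlimKO-labelled ones (log2 fold change -0.84 ± 0.11, adjusted p = 7.72e-06), Tpi1, triose phosphate isomerase, at 745 and 751 against 506 and 492 CPM (-0.59 ± 0.09, adjusted p = 0.000142), and Pgk1, phosphoglycerate kinase, at 902 and 904 against 577 and 649.6 CPM (-0.55 ± 0.10, adjusted p = 0.000362). The RlimKO-labelled libraries lay below the WT ones in all 3. Genes that hypoxia-inducible factor activates (Aldoa, Hk2, Ldha, Pfkl and Pgk1 are in both lists) fell in 13 of 26 cases and rose in 2 (median -0.38). The mitophagy gene Bnip3 (235 and 221 against 125 and 137 CPM; -0.78 ± 0.11, adjusted p = 4.3e-05) and the growth factor Vegfa (226 and 197 against 137 and 116 CPM; -0.77 ± 0.12, adjusted p = 0.00013) fell. Slc2a1, the glucose transporter GLUT1, rose instead (721 and 675 against 1157 and 1341 CPM; 0.84 ± 0.10, adjusted p = 3.88e-06). Both lines were kept at the same labelled oxygen level. Glycolytic genes lower came to 8 without WT replicate 1. The model of all 12 libraries called 4 of the glycolytic genes and 3 of the hypoxia genes lower, and DESeq2 7 and 8.

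Subunits of oxidative phosphorylation did not follow: 2 of 43 rose and 0 fell (median -0.14). Both that rose, Atp5b (0.48 ± 0.09, adjusted p = 0.00114) and Atp5d (0.60 ± 0.16, adjusted p = 0.0116), lie in the raised stretch of chromosome 10. Cytosolic ribosomal protein genes rose in 12 of 55 cases and fell in 0 (median 0.19). Their share called was 21.8%, near the 18.2% of all genes tested. Rps2 was among those that rose (275 and 261 against 397 and 397 CPM, 0.56 ± 0.10, adjusted p = 0.000316). Rps15 had the largest difference of the 12 (0.79 ± 0.11, adjusted p = 4.04e-05) and lies in that stretch. The ribosomal count turned on the libraries, with 25 higher without RlimKO-labelled replicate 1, which has the high Rn45s share, and 5 without replicate 2; it was 7 by DESeq2 and 1 in the model of all 12 libraries. Without RlimKO-labelled replicate 2, 1 oxidative phosphorylation gene was called higher and 2 lower. Of 24 cholesterol genes 1 rose and 1 fell, with 0 called by DESeq2 or without RlimKO-labelled replicate 1.

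Most targets of p53 were lower. Of 19 genes 13 fell and 0 rose (median -0.64), and the list median was -0.54 before differentiation. Cdkn1a, the cell-cycle inhibitor p21, stood at 149 and 202 CPM in the WT libraries and 92.99 and 68.4 CPM in the RlimKO-labelled ones (log2 fold change -1.17 ± 0.16, adjusted p = 2.51e-05). Ccng1, cyclin G1, stood at 762 and 846 against 463 and 497 CPM (-0.74 ± 0.10, adjusted p = 1.72e-05), and Trp53inp1, a p53-induced stress protein, at 282 and 290.5 against 142 and 144 CPM (-0.999 ± 0.11, adjusted p = 1.1e-06). No libraries of the lines overlapped in these genes. Mdm2, which encodes the ubiquitin ligase that degrades p53 and is itself a p53 target, lies in the raised stretch of chromosome 10 and was not called (226 and 199 against 216 and 241 CPM; 0.11 ± 0.11, adjusted p = 0.54). The list count was 8 without RlimKO-labelled replicate 2, 7 by DESeq2 and 1 in the model of all 12 libraries.

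Cell-cycle entry genes moved in both directions, 5 of 24 higher and 6 lower. Ccnd2, cyclin D2, stood at 518 and 517 against 264 and 227 CPM (-1.09 ± 0.10, adjusted p = 2.15e-07), and Ccnd1, cyclin D1, at 103 and 87.7 against 50.99 and 42.9 CPM (-1.06 ± 0.16, adjusted p = 9.84e-05). Cdkn2b, the inhibitor p15, stood at 41.8 and 41.4 against 12.999 and 7.30 CPM (-2.17 ± 0.28, adjusted p = 1.02e-05). Of the 5 that rose, Cdk2 and Cdk4 lie in the raised stretch, and 0 entry genes were called higher by DESeq2 or without WT replicate 1, 1 without WT replicate 2 and 3 without either RlimKO-labelled replicate. Replication licensing genes rose in 4 of 21 cases and fell in 0; Cdt1, the licensing factor, stood at 50.7 and 36.9 against 91.99 and 96.3 CPM (1.09 ± 0.17, adjusted p = 9.66e-05). With all 12 libraries in the model, 2 entry genes were called lower and 1 licensing gene higher.

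Imprinted genes, which are transcribed from the maternal or the paternal copy only, held some of the widest differences. Of 18 maternally expressed genes 6 rose and 5 fell, and of 21 paternally expressed genes 3 rose and 2 fell. The shares called were 61.1% and 23.8%, beside 18.2% of all genes tested. Maternally expressed genes lower came to 3 without RlimKO-labelled replicate 2 or without WT replicate 2, and the model of all 12 libraries called 3 higher and 3 lower. On chromosome 12 the maternal RNAs Rian (1756 and 1852 against 3637 and 4211 CPM; 1.12 ± 0.10, adjusted p = 1.32e-07), Mirg (86.2 and 84.7 against 229 and 188 CPM; 1.26 ± 0.13, adjusted p = 4.34e-07) and Meg3 (0.85 ± 0.11, adjusted p = 1.77e-05) rose. The paternal Dlk1 of the same cluster, a Notch-related growth regulator, fell (1155.5 and 849.6 against 408 and 333 CPM; -1.46 ± 0.13, adjusted p = 8.34e-08). Rtl1 was counted higher (156 and 116 against 279 and 276 CPM; 1.02 ± 0.12, adjusted p = 5.82e-06), but it overlaps maternal transcripts of the cluster, and the library preparation described does not mark strand. From Dlk1 to Dio3 (chr12:109452485-110281097) 25 of 37 tested features rose and 1 fell; 31 of the 37 were small RNA genes that lie within the long transcripts and share their reads.

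On chromosome 7, Igf2, the paternally expressed growth factor, stood at 2234 and 2076.5 against 797 and 564 CPM (-1.68 ± 0.13, adjusted p = 5.91e-09), and its neighbour H19 at 11815 and 12879.6 against 10605 and 8273 CPM (-0.39 ± 0.12, adjusted p = 0.0285), a smaller fall. Zim1 fell and Peg10 rose, as given above. Among writers, erasers and cofactors of DNA methylation, 2 of 15 genes rose and 6 fell (median -0.10); the number lower was 3 without WT replicate 1, 2 by DESeq2 and 1 in the model of all 12 libraries. Dnmt3l, the cofactor of de novo methylation, stood at 12.7 and 9.47 against 1.9998 and 3.19 CPM (-1.98 ± 0.48, adjusted p = 0.00589). It passed the filter on low counts through its WT libraries alone, so the filter favoured its fall. Dnmt3a, a de novo methyltransferase, stood at 375 and 377 against 292 and 257 CPM (-0.47 ± 0.10, adjusted p = 0.00266). DESeq2 did not call Dnmt3l, and the model of all 12 libraries called neither gene. Mbd3 rose (0.88 ± 0.15, adjusted p = 0.000203) and lies in the raised stretch of chromosome 10.

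On the X chromosome rises and falls were equal in number: 52 of 424 genes rose and 52 fell, and the median was 0.00, as on the autosomes. The share called was 24.5%, beside 18.0% of autosomal genes, and among the chromosomes only chromosome 10 had a higher share (36.8%). The difference in share was not tested. Without RlimKO-labelled replicate 2, 28 X-linked genes were called higher and 30 lower, and DESeq2 called 19 and 15. In the list of the inactivation centre and silencing factors 2 of 15 rose and 0 fell (13.3% called), with 0 called in the model of all 12 libraries. These were Ftx, listed as B230206F22Rik, a noncoding gene that acts on Xist (40.7 and 36.9 against 85.99 and 57.9 CPM; 0.82 ± 0.19, adjusted p = 0.00478), and Lbr, the lamin B receptor that binds Xist (151 and 159 against 212 and 249.5 CPM; 0.59 ± 0.11, adjusted p = 0.000776). Of 14 genes reported to escape inactivation 2 rose and 3 fell, among them Mid1 (0.71 ± 0.16, adjusted p = 0.00282) and Bgn, given above; 1 was called in each direction without RlimKO-labelled replicate 2, and DESeq2 called 0 higher and 1 lower. Of 15 RLIM substrates and partners 0 rose and 2 fell (13.3% called). These were Zfp42 and Ssbp4 (29.8 and 29.4 against 15.998 and 10.04 CPM, -1.29 ± 0.28, adjusted p = 0.00235), and DESeq2 called neither.

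Lists of stress and other states are given with their share called, beside 18.2% of all genes tested. Of 13 heat shock and handling genes 4 rose and 1 fell (38.5%), and of 11 interferon genes 1 rose and 4 fell (45.5%, median -0.66). Neither count was stable. Without WT replicate 1, 0 heat shock genes were called and 1 interferon gene in each direction, and DESeq2 called 0 of either list. Of 20 genes of the unfolded protein response 2 rose and 4 fell (30%), and DESeq2 called 1 in each direction. Of 20 lysosomal genes 1 rose and 4 fell (25%), and of 9 germline genes 1 rose and 2 fell (33.3%); neither rise was called without RlimKO-labelled replicate 2. Of the 12 genes of the 2-cell-like state 1 was tested and it was not called.

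**Figure D3:**
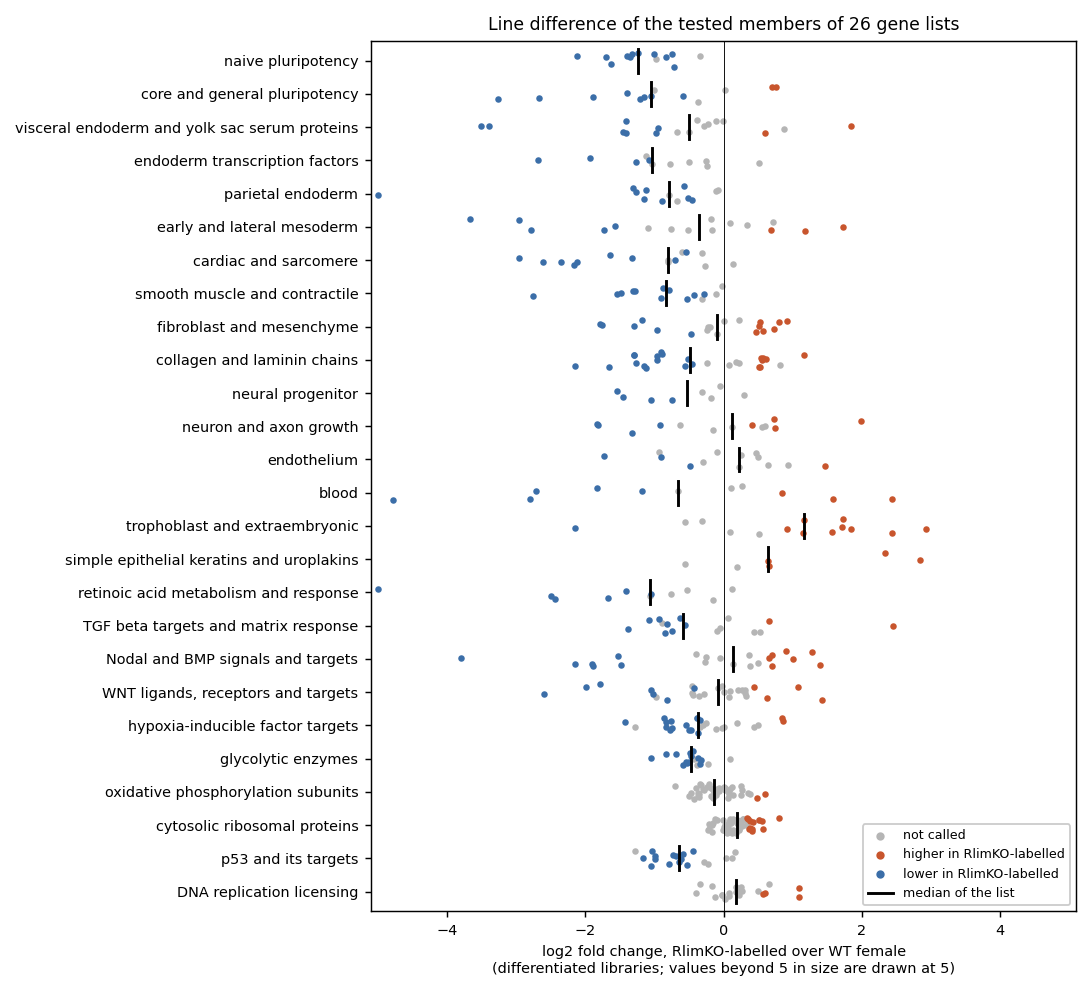
Log2 fold changes (horizontal axis, RlimKO-labelled over WT female, differentiated cells) of the tested members of 26 lists; each point is a gene, colour shows whether it rose, fell or was not called, and the black bar is the list's median; values beyond 5 in size are drawn at 5. Muscle, naive pluripotency, p53 and glycolysis lists have no orange point, and the trophoblast list has its median at 1.15.

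The same contrast was made before differentiation, in a model of the 8 female libraries. Among genes tested in both states, 428 were called before and 1983 after differentiation, and 175 were called in both (40.9% and 8.83% of the calls), 137 with the same sign. The difference between the states was tested itself as an interaction. Of 11222 genes, 522 (4.65%) had a line difference that was not the same in the 2 states, 220 (1.96%) more positive after differentiation and 302 (2.69%) more negative. This count was 188 by DESeq2, 29 in the model of all 12 libraries and 242 without differentiated RlimKO-labelled replicate 2.

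Rlim was lower in the labelled line before differentiation (523 and 553 against 315 and 295 CPM; -0.82 ± 0.12, adjusted p = 1.79e-06) and not after, and its change between states was called (0.99 ± 0.17, adjusted p = 1.95e-05). Tdgf1 stood at 611 and 550.4 against 503 and 550.2 CPM before differentiation, and the difference between the states was -1.76 ± 0.26, adjusted p = 9.35e-07. Of the naive list 5 of 13 and of the core list 6 of 13 moved down in this test. Sfrp1 overlapped before differentiation, 254 and 191 against 225 and 200.4 CPM, and its difference between the states was -2.53 ± 0.22, adjusted p = 5.37e-15. Nes (24.7 and 16.8 against 45.97 and 36.9 CPM; -2.53 ± 0.32, adjusted p = 2.72e-08) and Ccnd2 (40.2 and 41.2 against 66.7 and 74.6 CPM; -1.89 ± 0.24, adjusted p = 2.81e-08) were higher in the labelled line before differentiation and lower after it. Glycolytic enzymes gave the largest share of any metabolic list, 9 of 17 moving down; Ldha, lactate dehydrogenase, stood at 544 and 605 against 756 and 827 CPM before differentiation and at 1007 and 962 against 593 and 789 CPM after it (-0.96 ± 0.17, adjusted p = 3.32e-05), and the oxygen sensor Egln3 at 10.3 and 17.8 against 44.8 and 39.4 CPM and then 86.6 and 80.7 against 48.995 and 45.6 CPM (-2.39 ± 0.38, adjusted p = 6.03e-06).

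By contrast, for the p53 list 1 of 19 genes moved in the interaction test; Trp53inp1 stood at 279 and 307 against 175 and 179 CPM before differentiation (-0.27 ± 0.19, adjusted p = 0.499). The chromosome 12 RNA Rian stood at 363 and 373.5 against 849 and 892 CPM before differentiation (-0.12 ± 0.16, adjusted p = 0.774). Sp4 had 20 and 21 counts in the undifferentiated WT libraries and 0 and 1 in the RlimKO-labelled ones. It was the only one of the genes tested with at most 3 counts over the 4 RlimKO-labelled libraries of both states and at least 5 in each WT female library, and 0 genes met the reverse.

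**Figure D4:**
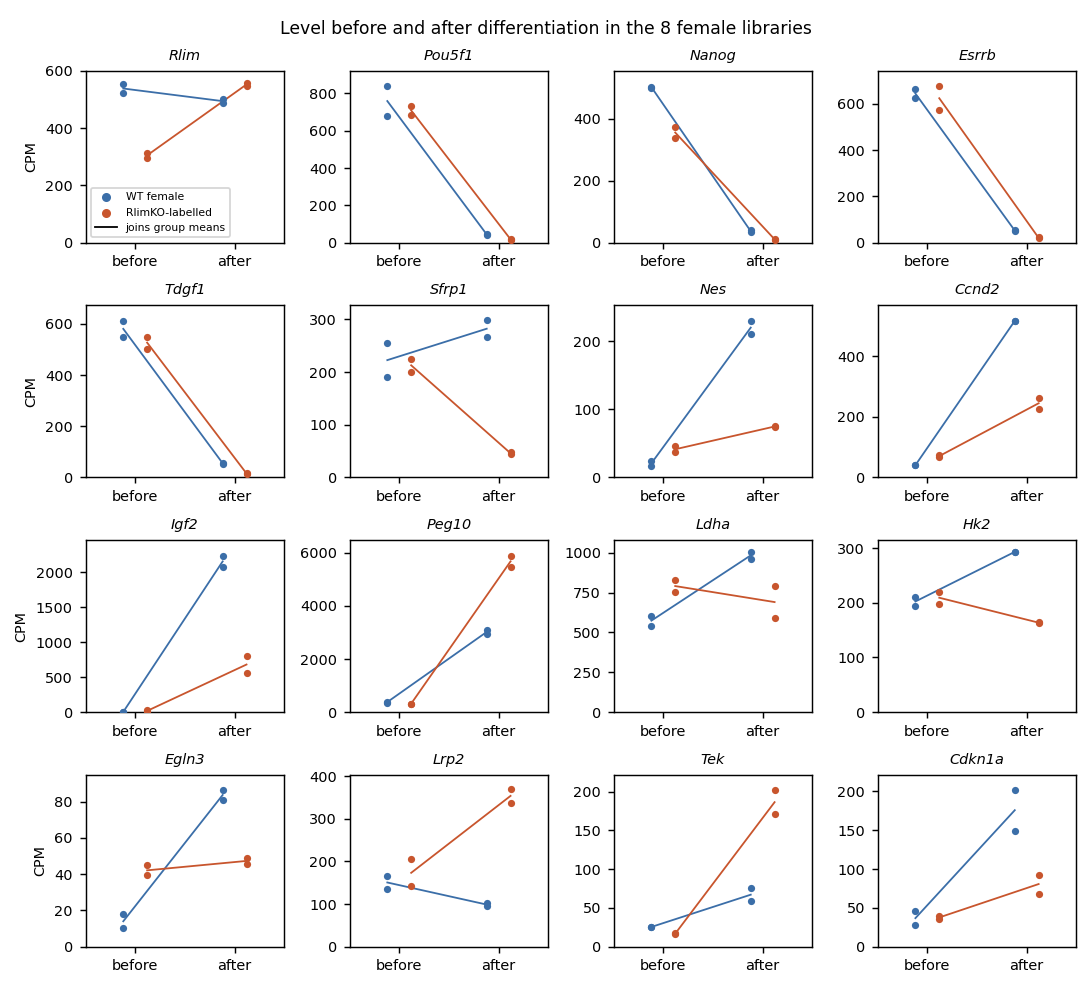
CPM (linear axes from 0) of 16 genes in the 8 female libraries before and after differentiation; points are libraries, lines join group means, blue is WT and orange RlimKO-labelled. In the Tdgf1 panel the lines start close together and the RlimKO-labelled line ends lower, while Rlim starts lower and ends at 546 and 559 against 488 and 501.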

How the data were processed

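RNA-seq was analysed in 4 differentiated female libraries (2 WT, 2 RlimKO-labelled) out of 12, as gene counts deposited by the authors. Per the labels' protocols, bead-bound RNA was reverse transcribed with a template-switching oligo, amplified by PCR, tagmented (Nextera) and sequenced on a NextSeq 500; no molecular identifiers are described, so intervals cover counting error only. The submitters' processing notes name bcl2fastq 2.16.0.10, TopHat2 2.0.12, HTSeq 0.6.1p1, edgeR 3.10.0 and the build mm10. Whether counting used strand is not given in the sources used here.

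Of 23336 symbols, Rn45s and Lars2 were dropped, as were 5 summary lines that name no gene; the no-feature line held 48.9% to 49.98% of the reads listed in the 4 libraries. edgeR 4.0.16 (R 4.3.3) fitted the 4 libraries with filterByExpr, TMM factors and the quasi-likelihood F test, adjusted over all genes tested. A gene can pass that filter through the libraries of a single line, and list counts include such genes. A model of the 8 female libraries tested whether the line difference changed between the states (an interaction term). CPM are counts over TMM-scaled library sizes. Tests were tried on simulated counts for these 11552 genes: the comparison of the lines recovered 73% of genes changed by 1 and 91% of genes changed by 2 on the log2 scale. Positions and promoters are RefSeq's, GRCm38.p6, and 11482 tested genes had one. Exact permutation of 2 against 2 cannot go below p = 0.333, so no single-value test was made.

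The members and gene lists were chosen with earlier results of these data known. The naming rule took up to 4 called genes of each list. It also took the 12 largest rises and falls among called genes without library overlap and with a mean of at least 10 CPM in either line. Genes named outside it, after their values were seen, were Bmp4, Cnn2, Col1a1, Col1a2, Col3a1, Col4a5, Col4a6, Dab2, Egln3, H19, Lama4, Lamb2, Ldha, Lin28a, Mdm2, Meg3, Myl7, Postn, Pou5f1, Rhox6 and Trim71, with the marker genes given by counts, the 3 muscle promoters (the rule pointed to collagen and laminin promoters), the macrophage list and the genes of chromosome 10. Alternatives were DESeq2, other scaling and filters, thinning, a replicate block and leaving out each library; leaving out distal chromosome 10 was added after seeing the data. Some listed genes are counted but not reported by name here.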

Additional observations from a re-analysis of the deposited data

Results flagged for a closer look

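The line difference was not the same before and after differentiation in 48 of the genes named above, by the test of that difference in edgeR's quasi-likelihood model of the 8 female libraries (adjusted over 11222 genes, 4.65% called). Each value is the log2 difference after differentiation minus that before it, so a negative value means that the RlimKO-labelled line was relatively lower after differentiation. Genes named in more than one place are given once. Fits of genes with 0 counts in a group depend on the prior count and are not bounds. Pluripotency and related genes gave -2.38 for Lefty2, -1.90 for Ssbp4, -1.79 for Fgf4, -1.76 for Tdgf1, -1.31 for Esrrb, -1.13 for Nanog, -1.10 for Pou5f1, 0.82 for Lin28a and 1.11 for Trim71. Metabolic, cell-cycle and ribosomal genes gave -2.39 for Egln3, -1.89 for Ccnd2, -1.17 for Cdkn1a, -1.16 for Ccnd1, -1.09 for Bnip3, -0.96 for Ldha, -0.88 for Hk2, -0.77 for Pgk1, -0.70 for Tpi1, 0.54 for Rps2 and 1.13 for Cdt1. Signals and neural genes gave -2.71 for Sfrp2, -2.53 for Sfrp1, -2.53 for Nes, -2.30 for Sox11 and 4.50 for L1cam. Endoderm, trophoblast and imprinted genes gave -4.16 for Igf2, -4.13 for Zim1, -2.57 for Apob, 1.16 for Peg10, 1.62 for Lrp2, 2.64 for Tfap2c, 3.57 for Rhox6 and 3.58 for Dab2. Muscle, matrix, vessel and blood genes gave -7.33 for Srgn, -4.47 for Laptm5, -3.78 for Myl7, -3.49 for Col11a1, -3.03 for Spp1, -2.31 for Des, -2.19 for Col3a1, -1.56 for Ttn, -1.36 for Eng and 2.06 for Tek. The remaining genes gave -7.23 for Igfbp7, -6.16 for Shisa3, -5.79 for Dbc1, 0.99 for Rlim and 4.49 for Igsf11. Of these, 4 genes with counts near 0 in a group (Igfbp7, Dbc1, Shisa3 and Srgn) gave the lowest values.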

How the results depend on the processing

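Leaving out 1 library at a time gave 1349 to 2056 calls against 2107 for the line difference after differentiation, lowest without RlimKO-labelled replicate 2, and 242 to 525 against 522 for the difference between the states. DESeq2 called 828 and 188, the model of all 12 libraries 363 and 29, and libraries thinned to the smallest total 1320 and 324. A log2 fold change of at least 1 was met by 828 genes called after differentiation. The other settings stayed within 1.5 times: RLE factors, Rn45s and Lars2 kept, no filter, 10 CPM and, chosen after seeing the data, distal chromosome 10 left out (1953 of 11240 genes). No named gene changed direction in any of these settings; of 195 named genes, 44 were no longer called by DESeq2, and of 193 in the model of all 12 libraries 99 were not. The same-numbered libraries did not deviate together (correlations of -0.01 to 0.05), so they share only a number; with the replicate block 2374 genes were called after differentiation, 2073 of them among the 2107, and 545 for the difference between the states. RlimKO-labelled replicate 1 had the fewest counts of the 4 libraries, 1027807. In simulated data the difference between the states was recovered for 28% of genes changed by 1 on the log2 scale.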
